A study of Homo sapiens with 6 samples.

Results

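The genes described here encode the enzymes that lengthen fatty acids in the endoplasmic reticulum, HACD1, HACD2, HACD3, ELOVL1, ELOVL5, ELOVL6, ELOVL7, HSD17B12 and TECR, which are 9 of the 29816 Ensembl genes in the deposited table. They were picked by pathway membership around HACD2, because its FPKM (fragments per kilobase of gene, scaled to the size of the library) was lower in one group. HACD2 was fitted with all other genes, but its difference between the groups is therefore given as a description, without its p-value. The cells were KYSE-150, a long-established line from a human squamous carcinoma of the esophagus, and polyA-selected RNA was sequenced in 2 groups of 3 libraries. One group was transfected with the control small interfering RNA si-NC and the other with si-circTMEM45A, which is directed at a circular RNA whose name is that of the gene TMEM45A. The labels give no time, dose or small interfering RNA sequence.

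Very-long-chain fatty acids are built by a cycle that adds a pair of carbons in each turn. An ELOVL enzyme condenses an acyl-CoA with malonyl-CoA, HSD17B12 reduces the 3-keto product, an HACD enzyme removes water from the 3-hydroxyacyl-CoA and TECR reduces the remaining double bond. ELOVL enzymes differ in the chains they accept and set the pace of the cycle, while the later steps are shared by all chains. In stratified squamous epithelium the products are known for their place in ceramides and other sphingolipids.

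Libraries held 16636248 to 17323964 gene-assigned reads. On log2(FPKM + 1), the correlation over genes was 0.985 to 0.988 between replicates and 0.978 to 0.982 between the groups. By reads, si-circTMEM45A replicate 1 differed more from replicates 2 and 3 (chi-square over degrees of freedom 5.07 and 4.26) than these did from each other (2.71). Nothing in the labels says that replicates were separate cultures, so the p-values below cover only library-to-library spread, possibly of technical origin. The host gene TMEM45A had 3.26, 2.90 and 3.19 FPKM with si-NC against 2.34, 1.91 and 2.11 with si-circTMEM45A. TMEM45A thus fell by 0.40 on the log2 scale (SE 0.08, n = 3; limma adjusted p = 0.0167). That call was lost without replicate 1 or 3 of si-NC or replicate 2 or 3 of si-circTMEM45A (limma adjusted p = 0.0587, 0.0569, 0.0505 and 0.0523). PolyA selection favours linear transcripts, and the level of the circle was not analysed here. Among squamous epithelial markers KRT5, KRT17, EPCAM, CDH1 and DSP were abundant. KRT14 was less so, at group means of 10.7 (si-NC) and 6.47 FPKM (si-circTMEM45A). KRT6A and SOX2 were too low to be tested. In the same order of groups, KRT6A averaged 0.845 and 0.299 FPKM, without overlap, and SOX2 0.276 and 0.386. Of the 9 markers tested, 5 fell (KRT5, KRT14, TP63, DSG3 and PKP1) and 1 rose (KRT17). EPCAM, CDH1 and DSP were not called. The share of markers called was 66.7%, beside 18.8% of all tested genes at a limma adjusted p under 0.05. The summed FPKM of all 11 was 761 to 803 with si-NC and 632 to 673 with si-circTMEM45A. The part of this shift in the results below was not tested. Markers of other tissues stayed low, at 1.96 to 2.38 summed FPKM for fibroblasts, 0.838 to 1.48 for endothelium, 0.848 to 1.601 for immune cells and 0.503 to 1.19 for muscle over all libraries. These sums cover 4 of 8 fibroblast, 5 of 6 endothelial, 6 of 10 immune and 3 of 6 muscle markers. The rest were not found by symbol in the deposited table. In bulk RNA a lower share of cells with a transcript and less transcript per cell cannot be told apart.

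HACD2, the dehydratase with the highest FPKM of its family in these cells, was lower with si-circTMEM45A. ELOVL1, the condensing enzyme for very long saturated and monounsaturated chains, rose. The other 7 genes did not pass the test. All 9 were expressed above the filter of FPKM of at least 1 in at least 3 libraries, which left 12676 genes tested with limma (adjusted p under 0.05). Leaving out HACD2, 1 of the other 8 was called higher and 0 lower, beside 18.8% of all tested genes called in either direction. The median log2 fold change was -0.02 over these 8 and 0.03 over all tested genes. The groups did not overlap for 4 of the 8, beside 39.2% of all tested genes. The list was put together with these values known, so nothing is read from the counts.

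**Figure D1:**
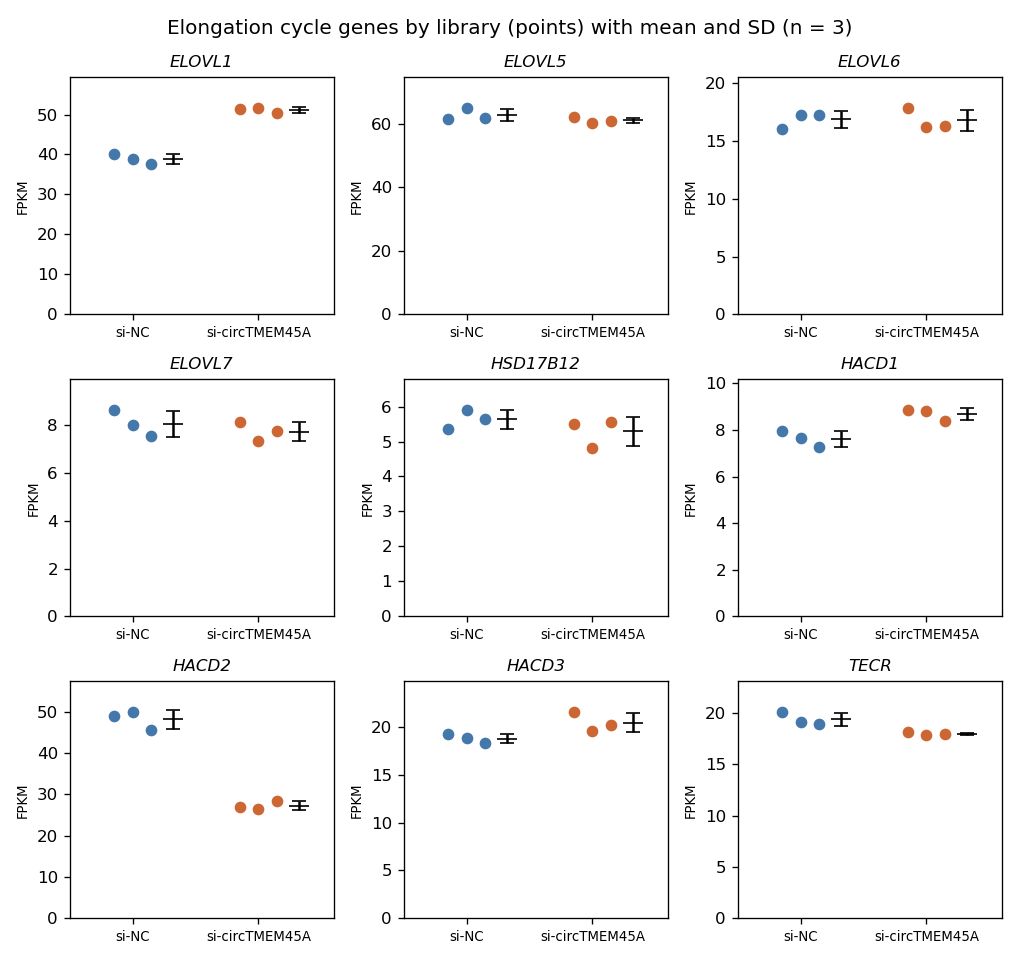
FPKM of the 9 elongation cycle genes in each library (points, y axes from 0), with the mean and SD of each group of 3 libraries (black). HACD2 sits at 45.6 to 49.9 FPKM in si-NC libraries and at 26.4 to 28.5 in si-circTMEM45A libraries, ELOVL1 is higher in each si-circTMEM45A library, and ELOVL5, ELOVL6, ELOVL7 and HSD17B12 overlap between the groups.

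At the dehydration step, HACD2 (ENSG00000206527, chromosome 3, 123490820 to 123585185, minus strand, GRCh38) had 49.1, 49.9 and 45.6 FPKM in si-NC replicates 1, 2 and 3 and 26.8, 26.4 and 28.5 FPKM in si-circTMEM45A replicates 1, 2 and 3. The lowest si-NC library was well above the highest si-circTMEM45A library. The means were 48.2 ± 2.30 and 27.2 ± 1.08 FPKM (SD, n = 3), a ratio of 0.57 and a log2 fold change of -0.80 ± 0.05 (SE). These values rest on 2387 to 4442 reads per library. By log2 fold change HACD2 ranked 51 from the bottom of the 12676 tested genes.

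HACD1 (ENSG00000165996, chromosome 10, 17589032 to 17617377), a family member best known for its role in muscle, had 7.95, 7.64 and 7.27 FPKM with si-NC and 8.85, 8.83 and 8.37 with si-circTMEM45A. Each si-circTMEM45A library was above each si-NC library, but the gene was not called (log2 fold change 0.17 ± 0.05, SE, n = 3; limma adjusted p = 0.0547). It was called when only genes with FPKM of at least 5 were tested (limma adjusted p = 0.0454; range over the alternatives 0.0454 to 0.152). HACD3 (ENSG00000074696, chromosome 15, 65530418 to 65578352), a broadly expressed dehydratase, had 19.2, 18.8 and 18.3 FPKM with si-NC and 21.5, 19.6 and 20.2 with si-circTMEM45A. It too did not overlap between the groups and was not called (log2 fold change 0.12 ± 0.05, SE, n = 3; limma adjusted p = 0.126). HACD4 lay far below the filter, at 5, 9 and 8 reads with si-NC and 11, 7 and 14 with si-circTMEM45A, or 0.0323 to 0.0883 FPKM.

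Because FPKM is scaled to gene length, the family members can be added. The summed HACD level was 76.2, 76.4 and 71.2 FPKM with si-NC and 57.3, 54.9 and 57.1 with si-circTMEM45A. HACD2 made up 64.3, 65.3 and 64.0% of that sum with si-NC and 46.8, 48.2 and 49.8% with si-circTMEM45A. By FPKM it was the leading HACD transcript in every library of both groups, followed by HACD3 and HACD1. By reads, which are not scaled to length, HACD3 was above HACD2 in si-circTMEM45A replicate 1 (2627 against 2469). HACD2 had slightly more reads than HACD3 in replicates 2 (2387 against 2344) and 3 (2639 against 2482) of that group. The lead and the shares with si-circTMEM45A thus depend on the exon lengths used. Without HACD2 the sum of the other HACD genes was 26.4 ± 0.78 FPKM (SD, n = 3) in the control group and 29.2 ± 1.10 in the other, a difference of means much smaller than that of HACD2 itself. Within a library, the ratio of HACD2 to HACD3 was 2.55, 2.65 and 2.49 with si-NC and 1.247, 1.35 and 1.41 with si-circTMEM45A, which does not depend on how libraries are scaled. The ratio of HACD2 to TECR, the next enzyme of the cycle, went from 2.48 ± 0.11 to 1.51 ± 0.06 (SD, n = 3).

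**Figure D2:**
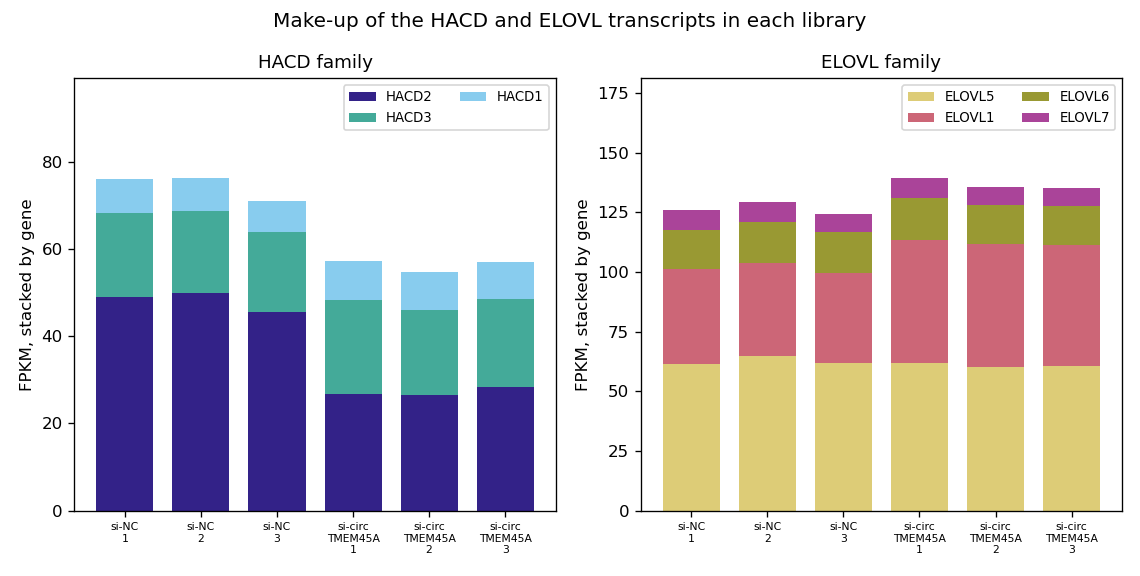
FPKM of HACD genes (left) and ELOVL genes (right) stacked for each library, with 1 bar per library and colours for genes (HACD4 and ELOVL2, close to 0, are left out). The HACD2 segment takes 64.0 to 65.3% of the HACD sum with si-NC and 46.8 to 49.8% with si-circTMEM45A, and the ELOVL1 segment is the one that grows on the right.

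The 3′ UTR sequences are shown because HACD2 held more copies of certain short words of the transcript than any of the other 8 genes. The word TGAAAGC, the word GAAAGCA, the word CCTGATC and the word CTGATCA came from an earlier search of these same data, where genes with them in the 3′ UTR tended to be lower, so a match in HACD2 is no independent evidence. They were searched on the transcript strand of the longest annotated 3′ UTR (GENCODE 29, at least 50 bases). TGAAAGC and GAAAGCA overlap when they stand together, as do CCTGATC and CTGATCA. In the 3334-base 3′ UTR of HACD2, TGAAAGC occurred 3 times and GAAAGCA once, in the 3 stretches printed here. Matches of HACD2 to the other words are not reported here. Capitals mark the words, with transcript bases around them (GRCh38, minus strand, read 5′ to 3′), and positions count from the first base after the coding sequence.
HACD2 at chr3:123493960-123493989, bases 910 to 917: ggctgtgttagTGAAAGCAcatggaaggtg
HACD2 at chr3:123493567-123493595, bases 1304 to 1310: ggatgaaaatgTGAAAGCccaagtttaga
HACD2 at chr3:123491642-123491670, bases 3229 to 3235: atgcatgcattTGAAAGCtgtttttacct
ELOVL6 at chr4:110048416-110048445, bases 2904 to 2911: tcctactatggTGAAAGCAttgttcttggg

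ELOVL6, with a 3′ UTR of 5492 bases, was the only other of the 9 genes with any of the words, in 1 stretch, and its level overlapped between the groups. ELOVL1, ELOVL5, ELOVL7, HACD1, HACD3, HSD17B12 and TECR held none, with 3′ UTRs of 519 to 2833 bases. At least 1 of the words stood in 38.0% of the 10294 tested protein-coding genes with a searched 3′ UTR, and in 60.5% of the 808 with a 3′ UTR of 3000 to 3700 bases, a window set after the length in HACD2 was seen. Holding 3 or more copies of TGAAAGC was rarer, with 52 of the 10294 genes (0.505%), HACD2 among them, and 6 of the 808 in that window of lengths (0.743%). Most of these 52 genes, 41, were not called, while 8 were lower, HACD2 counted with them, and 3 higher. Over all 10294 genes 8169 were not called, 908 were lower and 1217 higher. The words and HACD2 were both chosen with these data known, so nothing is read from this split. A match is a description of the letters and not a shown site of binding, and its part in the level of HACD2 was not tested.

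At the condensation step, ELOVL1 (ENSG00000066322, chromosome 1, 43363397 to 43368074, minus strand) had 40.0, 38.9 and 37.6 FPKM with si-NC and 51.3, 51.6 and 50.4 with si-circTMEM45A. The groups were widely separated relative to their spread, with means of 38.8 ± 1.22 and 51.1 ± 0.66 FPKM (SD, n = 3). ELOVL1 rose, with a log2 fold change of 0.39 ± 0.04 (SE, n = 3; limma adjusted p = 0.00145), a ratio of 1.32 and 1597 to 2213 reads per library. It ranked 599 from the top of the tested genes by log2 fold change.

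ELOVL5 (ENSG00000012660, chromosome 6, 53267398 to 53349179), which elongates polyunsaturated chains, was the most abundant of the 9 genes. Its levels were 61.4, 65.0 and 61.9 FPKM with si-NC and 62.1, 60.4 and 60.8 with si-circTMEM45A, which overlapped (log2 fold change -0.04 ± 0.04, SE, n = 3; limma adjusted p = 0.496). ELOVL6 (ENSG00000170522, chromosome 4, 110045846 to 110199199), which takes palmitate to stearate, had 16.1, 17.3 and 17.3 FPKM with si-NC and 17.8, 16.2 and 16.3 with si-circTMEM45A. Its group means were nearly equal (log2 fold change -0.01 ± 0.05, SE, n = 3; limma adjusted p = 0.939). ELOVL7 (ENSG00000164181, chromosome 5, 60751791 to 60844389), an elongase of saturated long chains, had 8.64, 8.03 and 7.56 FPKM with si-NC and 8.12, 7.34 and 7.76 with si-circTMEM45A, again overlapping (log2 fold change -0.05 ± 0.06, SE, n = 3; limma adjusted p = 0.584).

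ELOVL2, an elongase of long polyunsaturated chains, was barely seen, with 0, 0 and 1 reads with si-NC and 0, 2 and 0 with si-circTMEM45A. A count of 0 allows up to 3 reads, or 0.0433 to 0.0451 FPKM, and this limit covers counting error only. ELOVL3, ELOVL4 and TECRL were not found by symbol among the genes of the deposited table, so they have no values here. ELOVL1 made up 31.7, 30.1 and 30.2% of the summed ELOVL level with si-NC and 36.8, 38.1 and 37.2% with si-circTMEM45A. ELOVL5 stayed the leading ELOVL transcript in every library, at 49.6 ± 0.82% and 44.7 ± 0.25% of the sum (SD, n = 3). The sum itself was 126.1, 129.2 and 124.4 FPKM with si-NC and 139.4, 135.5 and 135.3 with si-circTMEM45A. Sums with si-circTMEM45A were above all those with si-NC.

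The 2 reductase steps each rest on 1 gene. HSD17B12 (ENSG00000149084, chromosome 11, 43680558 to 43856617), the 3-ketoacyl-CoA reductase, had 5.36, 5.90 and 5.65 FPKM with si-NC and 5.50, 4.82 and 5.55 with si-circTMEM45A. These overlapped, and the gene was the lowest of the 9 in both groups (log2 fold change -0.08 ± 0.07, SE, n = 3; limma adjusted p = 0.44). TECR (ENSG00000099797, chromosome 19, 14517085 to 14565980), the enoyl-CoA reductase that closes the cycle and also acts in sphingosine breakdown, had 20.1, 19.1 and 19.0 FPKM with si-NC and 18.1, 17.9 and 17.97 with si-circTMEM45A. Each si-circTMEM45A library was below each si-NC library by a small margin, and TECR was not called (log2 fold change -0.10 ± 0.04, SE, n = 3; limma adjusted p = 0.109). Exons of HSD17B12 share 12.1% of their bases with the opposite-strand gene AC087521.2, which had 11 to 26 reads. They also share 6.25% with the same-strand gene AC068205.2, which had 56 to 93 reads and which strand cannot separate. Exons of TECR share 3.57% with DNAJB1, which had 3431 to 3705 reads on the opposite strand. Whether the counting used strand is not given in the sources used here. HACD2 shares no exonic base with another annotated gene.

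**Figure D3:**
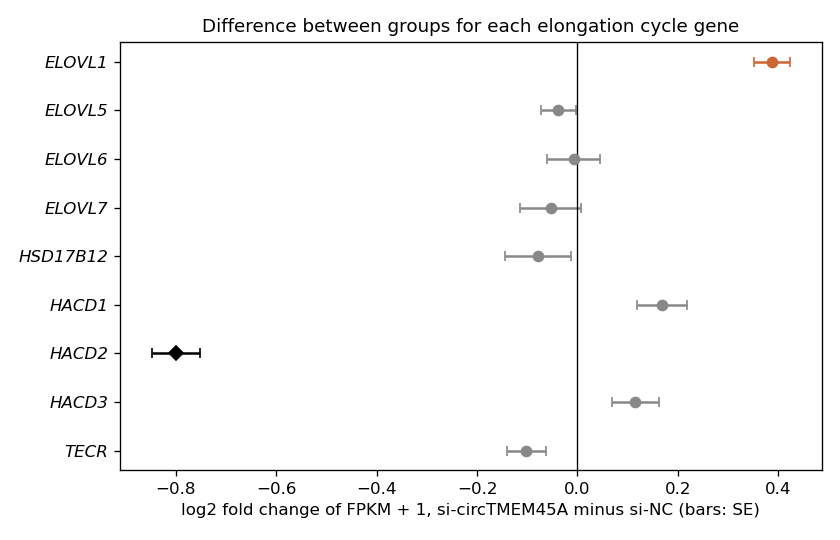
Log2 fold change of FPKM + 1 (x axis, si-circTMEM45A minus si-NC) for each elongation cycle gene. Bars are the SE of the limma fit. Orange is called higher and grey is not called. The black diamond is HACD2, which was picked for its fall and is shown without its call. HACD2 lies at -0.80 and ELOVL1 at 0.39, and the other 7 genes lie between -0.10 and 0.17.

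By mean FPKM the order with si-NC was ELOVL5, HACD2, ELOVL1, TECR, HACD3, ELOVL6, ELOVL7, HACD1 and HSD17B12. TECR and HACD3 overlapped in that order, as did ELOVL7 and HACD1, so neither pair can be ordered. With si-circTMEM45A the order was ELOVL5, ELOVL1, HACD2, HACD3, TECR, ELOVL6, HACD1, ELOVL7 and HSD17B12, with no overlap between neighbours. HACD2 and ELOVL1 thus changed places between the groups. Levels are per kilobase of all annotated exons, so genes with many unused exons read low.

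Of the 7563 other tested genes with a mean FPKM of at least 5, those most like HACD2 over the 6 libraries, by Pearson correlation of log2(FPKM + 1), were KDELR3 (r = 0.999), CAV1 (0.999), GALNT7 (0.997), EIF4B (0.997) and BEX3 (0.997). The libraries form 2 groups, so such a correlation mostly reflects the difference between them. KDELR3, a retrieval receptor of the endoplasmic reticulum, went from 10.5 ± 0.47 to 5.76 ± 0.14 FPKM (SD, n = 3) and GALNT7, a glycosyltransferase, from 14.3 ± 0.56 to 7.09 ± 0.39. CAV1, the caveolar coat protein, went from 169.6 ± 5.76 to 101.1 ± 3.09 FPKM. EIF4B, a translation initiation factor, and BEX3 had the same pattern with smaller differences, at 80.3 ± 0.73 and 68.2 ± 1.13 FPKM and at 55.9 ± 1.03 and 43.7 ± 0.70 FPKM. Among the elongation genes TECR had r = 0.91 with HACD2, and ELOVL1, HACD1 and HACD3 had r = -0.98, -0.88 and -0.77.

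The genes flanking HACD2 on 3q21 in the table were below the filter. ADCY5, an adenylyl cyclase, had 0 to 4 reads per library, and MYLK, myosin light chain kinase, had 0.473, 0.458 and 0.463 FPKM with si-NC and 0.386, 0.393 and 0.404 with si-circTMEM45A. MYLK had 147 to 177 reads per library over 22167 exonic bases, its groups did not overlap, and it was not tested. Of 10 tested genes of 3q21, PARP14, an ADP-ribosyltransferase, fell (8.03 ± 0.19 to 5.80 ± 0.54 FPKM, SD, n = 3; limma adjusted p = 0.00745), SLC49A4 rose (7.97 ± 0.05 to 9.61 ± 0.49 FPKM; limma adjusted p = 0.0161) and 8 were not called, with a median log2 fold change of -0.02. The share called was 20% there and 18.8% over all tested genes. The call of SLC49A4 was gone when si-NC replicate 1, si-NC replicate 2 or si-circTMEM45A replicate 3 was left out (limma adjusted p = 0.0519, 0.0502 and 0.0576).

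Of 10 tested genes of fatty acid synthesis, not all of which supply the cycle, 1 fell and 0 rose. Their median log2 fold change was 0.02, and 10% were called, beside 18.8% of all tested genes. The one was ACLY, which makes cytosolic acetyl-CoA from citrate, at 97.5, 102.3 and 98.98 FPKM with si-NC and 79.5, 85.1 and 81.9 with si-circTMEM45A (limma adjusted p = 0.00465). ACACA, which makes malonyl-CoA, was at 28.2 ± 0.21 and 28.4 ± 0.20 FPKM (SD, n = 3), and the fatty acid synthase FASN at 222.8 ± 10.8 and 195.9 ± 20.95 (limma adjusted p = 0.139). Of 11 tested acyl-CoA synthetases and binding proteins 1 rose, SLC27A4, a fatty acid transporter with very-long-chain acyl-CoA synthetase activity, from 14.8 ± 1.29 to 20.98 ± 1.16 FPKM (limma adjusted p = 0.00541), and 0 fell (9.09% called, beside 18.8% of all tested genes). With median-of-ratios scaling 1 of them rose and 1 fell.

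Desaturases and the cytochrome b5 proteins that pass electrons to them act on the same chains. Of 7 tested genes of this list 2 rose and 2 fell, with a median of -0.09 (57.1% called, beside 18.8% of all tested genes). With median-of-ratios or quantile scaling 1 rose and 2 fell. SCD, the main stearoyl-CoA desaturase, fell from 237.5, 284.0 and 267.2 FPKM with si-NC to 164.1, 178.2 and 180.3 with si-circTMEM45A (log2 fold change -0.59 ± 0.07, SE, n = 3; limma adjusted p = 0.00305). Its relative SCD5 rose, at 28.3 ± 1.09 and 32.1 ± 1.63 FPKM (SD, n = 3; limma adjusted p = 0.0462). CYB5R1, a cytochrome b5 reductase, rose from 4.12 ± 0.17 to 5.85 ± 0.29 FPKM (limma adjusted p = 0.00428), and FADS3, a relative of the front-end desaturases, fell from 31.1 ± 2.11 to 26.8 ± 1.2995 (limma adjusted p = 0.0471). The SCD5 call was lost in each limma fit that left out 1 library but the one without si-circTMEM45A replicate 2 (adjusted p 0.0697 to 0.136), and with median-of-ratios or quantile scaling (0.0863 and 0.0823). FADS3 was lost in each but the one without si-NC replicate 1 (adjusted p 0.0576 to 0.127).

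Ceramides and other sphingolipids take up very long chains. Of 20 tested genes of their synthesis and breakdown 1 rose and 2 fell, with a median of -0.01 (15% called, beside 18.8% of all tested genes). UGCG, which makes glucosylceramide, fell from 39.5, 45.5 and 41.8 FPKM with si-NC to 26.5, 29.01 and 27.0 with si-circTMEM45A (limma adjusted p = 0.00181). ALDH3A2, the fatty aldehyde dehydrogenase of sphingosine breakdown, fell from 31.7 ± 0.31 to 24.3 ± 0.97 FPKM (SD, n = 3; limma adjusted p = 0.00224). CERS2, the ceramide synthase for very long chains, was at 15.9 ± 0.63 and 16.8 ± 1.16 FPKM and not called (limma adjusted p = 0.391). SPHK1, a sphingosine kinase, rose from 8.51 ± 0.35 to 10.3 ± 0.72 FPKM (limma adjusted p = 0.0282), a call lost in each fit that left out 1 library but the one without si-circTMEM45A replicate 2 (limma adjusted p 0.0576 to 0.0862).

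Of 11 tested peroxisomal genes 2 rose and 2 fell, with a median log2 fold change of -0.0026 (36.4% called, beside 18.8% of all tested genes). The thiolase ACAA1 rose from 5.41 ± 0.53 to 7.18 ± 0.19 FPKM (SD, n = 3; limma adjusted p = 0.0146), a call lost with no filter on low values (limma adjusted p = 0.0526). PEX7, a peroxisomal import receptor, fell from 7.09 ± 0.87 to 5.33 ± 0.24 FPKM and CROT, a carnitine octanoyltransferase, from 9.70 ± 0.61 to 7.97 ± 0.37 (limma adjusted p = 0.0301 and 0.0252). PEX7 lost its call without any 1 library other than si-NC replicate 2 (limma adjusted p 0.0617 to 0.0908), and CROT without replicate 1 or 2 of si-NC or replicate 1 or 2 of si-circTMEM45A (limma adjusted p 0.0568 to 0.0767).

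Among 16 tested regulators of lipid genes 1 rose and 2 fell, with a median of 0.01, a share of calls close to the 18.8% of all tested genes. With median-of-ratios scaling 0 rose and 2 fell. SREBF1, the main activator of fatty acid synthesis genes, was at 28.1 ± 0.79 and 28.3 ± 1.65 FPKM (SD, n = 3; limma adjusted p = 0.919). NR1H2, an oxysterol receptor, rose from 36.2 ± 1.19 to 39.9 ± 0.84 FPKM (limma adjusted p = 0.0469), MBTPS2, a protease that releases SREBP, fell from 5.32 ± 0.10 to 4.44 ± 0.26 (0.0359) and the receptor RXRA fell from 17.3 ± 0.93 to 14.9 ± 0.70 (0.0433). NR1H2 lost its limma call without any 1 library (adjusted p 0.0589 to 0.142), MBTPS2 without any but si-circTMEM45A replicate 1 (0.0813 to 0.11) and RXRA without any but si-NC replicate 2 (0.0622 to 0.126). With median-of-ratios scaling NR1H2 was not called either (limma adjusted p = 0.126).

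Of 17 tested acyltransferases of phospholipid synthesis and remodelling 3 rose and 2 fell, with a median of -0.10 (29.4% called, beside 18.8% of all tested genes). The balance depended on scaling, with 2 higher and 4 lower by median-of-ratios and 3 of each by quantile scaling. LPCAT4 rose from 15.1 ± 0.29 to 19.2 ± 1.10 FPKM (SD, n = 3; limma adjusted p = 0.00612) and LPCAT1 from 10.3 ± 0.46 to 13.2 ± 0.59 (0.00715). Both are lysophospholipid acyltransferases. AGPAT5, which acylates lysophosphatidic acid, fell from 10.4 ± 0.39 to 8.23 ± 0.27 FPKM (limma adjusted p = 0.00658). MBOAT7 rose from 39.6 ± 2.89 to 46.9 ± 1.69 FPKM (limma adjusted p = 0.0304), a call lost with median-of-ratios scaling (0.0628) and without replicate 1 or 2 of si-NC or replicate 2 or 3 of si-circTMEM45A (limma adjusted p 0.0654 to 0.0953). LPGAT1, named after its values were seen, was the other gene that fell (8.56 ± 0.39 to 7.33 ± 0.18 FPKM, SD, n = 3; limma adjusted p = 0.0329), a call lost in each fit that left out 1 library but the one without si-NC replicate 1 (limma adjusted p 0.0643 to 0.103).

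**Figure D4:**
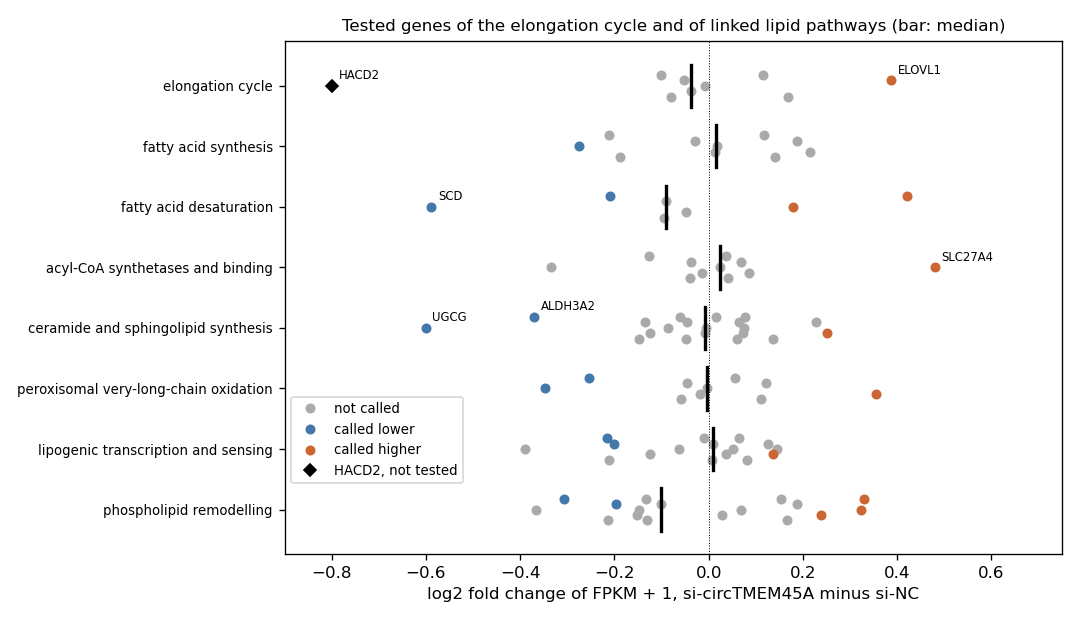
Log2 fold change of FPKM + 1 (x axis, si-circTMEM45A minus si-NC) of tested genes in the elongation cycle and in 7 linked lipid lists. Each gene is 1 point (1 peroxisomal gene is not shown), coloured by its limma call, with a black bar at each list's median. HACD2, labelled not tested because it was picked for its fall, is a black diamond. HACD2 at -0.80 lies lowest, SCD at -0.59 and UGCG at -0.60 come next, and the list medians lie between -0.10 and 0.02.

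With 3 libraries a group, HACD2 kept its direction in each of 15 alternatives, and ELOVL1 kept its direction and its limma call. The log2 fold change of HACD2 ranged from -0.84 to -0.77 and that of ELOVL1 from 0.35 to 0.41. Over all tested genes 1411 were higher and 969 lower, against 1021 higher and 1237 lower with median-of-ratios scaling and 1119 higher and 1168 lower with quantile scaling.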

How the data were processed

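The members and gene lists were chosen with earlier results of these data known. The authors deposited FPKM per Ensembl gene. The tools in the submitters' processing notes are HTSeq, StringTie 2.1.6, TopHat2, HISAT2 2.2.1 and cutadapt 1.9, and the build is GRCh38; what each tool did is not given in the sources used here. Of 29816 IDs, 29593 had a symbol. Reads were recovered as FPKM times GENCODE 29 exon length times a library total, and 100% of values came out whole (tolerance 0.02 reads). Replicates differed from each other by 2.71 to 5.07 times sampling noise, as chi-square over degrees of freedom, so each library was 1 sample. Tested genes had FPKM of 1 or more in 3 or more libraries. The test on log2(FPKM + 1), a scale that shrinks fold changes of low genes, was limma 3.58.1 (R 4.3.3, variance trend, two-sided, Benjamini-Hochberg over all tested genes, threshold 0.05), tested first on simulated reads. Figures used matplotlib 3.10.9. Named were the 9 members, TMEM45A, other ELOVL and HACD genes, up to 4 called genes of each list by p, the genes flanking HACD2 and the 5 most like it; others named are context chosen after their values were seen. Alternatives were a minimum FPKM of 5 or none, pseudocounts of 0.1 and 0.5, quantile and median-of-ratios scaling, a fit with no trend, a replicate block, limma voom on the recovered reads and leaving out each library. One called gene of the peroxisomal list and 1 stretch of HACD2 sequence are not reported here.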

Additional observations from a re-analysis of the deposited data

How the results depend on the processing

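HACD2 aside, ELOVL1 was called in each of 15 alternatives and HACD1 in 1 of them (FPKM of at least 5). ELOVL6, never called, changed sign in 4 of the refits with 1 library fewer; over all such refits its log2 fold change was -0.050 to 0.016. No other of the 9 genes changed sign. Of the pathway genes, SCD5 and NR1H2 each lost their call in 10 of the 15 alternatives. FADS3, LPGAT1, MBOAT7, MBTPS2 and RXRA each lost it in 7, and CROT, PEX7 and SPHK1 each in 6. With no filter on low values 1254 of all genes were called instead of 2380, 11 genes of the pathway lists instead of 23, and TMEM45A at a log2 fold change of -0.40 was not called (limma adjusted p = 0.0614). TMEM45A could not be fitted with FPKM of at least 5, which it does not reach. Leaving out 1 library gave 1341 to 1945 calls over all genes, 13 to 17 in the pathway lists and a TMEM45A log2 fold change of -0.45 to -0.35. The 1945 calls came without si-circTMEM45A replicate 1. Limma voom on the recovered reads called 3371 genes. Same-numbered libraries deviated together weakly at most, with correlations of 0.03, 0.01 and 0.05. Differently numbered ones had -0.046 to 0.018. The numbers were not taken to pair the libraries. With the replicate block 1720 genes were called, ELOVL1 among them, and 18 in the pathway lists. The number of libraries limits what small differences, such as those of HACD1, HACD3 and TECR, can be called.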
